A study of Mus musculus with 8 samples.

Results

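p53, the product of Trp53, is a transcription factor that is held at a low level by the ubiquitin ligase Mdm2 and accumulates when cells meet DNA damage or other stress. It then switches on genes that arrest the cell cycle, repair DNA, limit growth signals or promote cell death, and Mdm2 is itself a target, which closes a negative feedback loop. In islets of old mice the pathway is of interest because p53 acts in cellular senescence, the lasting arrest that β-cells can enter with age. The 8 genes examined here are Trp53, its feedback target Mdm2 and the targets Ccng1, Phlda3, Trp53inp1, Sesn2, Gdf15 and Eda2r. They were taken by symbol as p53 and direct targets outside the CDK inhibitors and the BCL2 family, and make up 8 of the 53012 gene identifiers in the table. All 8 passed the filter on low counts, which kept 15474 genes.

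RNA-seq was carried out on islets of 4 βIgf1r mice, labelled CTRL, and 4 βIgf1rKD mice, labelled KD, with 1 library per mouse. All were 17 months old and homozygous for a floxed Igf1r allele, in which exon 3 of the IGF-1 receptor gene can be removed. βIgf1rKD mice were Ins1-CreERT2 +/- and were given tamoxifen, 0.075 mg/g in each of 5 injections. βIgf1r mice were Ins1-CreERT2 -/- and were given corn oil. Islets were taken 7 days after the final dose. Cre and tamoxifen thus differ together between the groups, so that their effects and that of a reduced receptor cannot be told apart. The genotype is written Ins1-CreERT2, while the methods describe a tamoxifen-inducible Cre under a rat insulin promoter. Both sexes were used and are not marked per mouse. The comparison asks whether islets of mice with a β-cell knockdown of Igf1r differ in the p53 pathway.

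Total estimated counts lay between 21633925 and 42391106 per mouse. Igf1r, counted over the whole gene so that exon 3 is not seen on its own, was at 53.6 ± 7.21 CPM (counts scaled to library size with TMM factors, SD, n = 4) in βIgf1r and 50.7 ± 5.0 CPM in βIgf1rKD islets, a value that does not check the deletion. The islet hormones were abundant in every mouse, with Ins2 at 90200 CPM or more and Gcg at 11900 CPM or more. One βIgf1rKD mouse, M149, had the highest level of the 8 mice for several of the p53 targets. The difference between the groups is therefore given with and without M149 for each of the 8 genes and each list. M149 was singled out after the values were seen. A Dixon outlier check, which sets the gap beside an end value against the range of 4 values, did not flag it. This check flagged 0 of the 40 sets of 4 values examined, where 2 were expected.

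A difference between the groups was detected in none of the 8 genes. In the quasi-likelihood test of edgeR, adjusted over all genes by the Benjamini-Hochberg method, 0 of the 8 had an adjusted p under 0.05 (0.0% of all genes tested), and 0 had an unadjusted p under 0.05 (4.12% of all genes). DESeq2 and limma-voom also gave 0 of the 8 at an adjusted p under 0.05. Log2 fold changes of βIgf1rKD against βIgf1r ran from -0.03 for Sesn2 to 1.24 for Gdf15 and were above 0 for 7 of the 8, against 52.3% of all genes, with a median of 0.32 against 0.01. Without M149 they were above 0 for 4 of the 8, against 51.6% of all genes, with a median of 0.00. Leaving out M146 instead, the mouse lowest for 4 of the 8, raised the median to 0.53. Then 3 of the 8 had an unadjusted p under 0.05 (960 of 15680 genes over all) and 0 an adjusted p under 0.05. In no gene were the 4 mice of one group all above or all below those of the other, which held for 2.22% of all genes tested. Several of the 8 genes, though not Sesn2, were spread more widely among βIgf1rKD than among βIgf1r mice, which was not tested or set against all genes. M149 had the highest Ccng1, Phlda3, Trp53inp1, Gdf15 and Eda2r of all 8 mice, yet the lowest Mdm2.

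**Figure D1:**
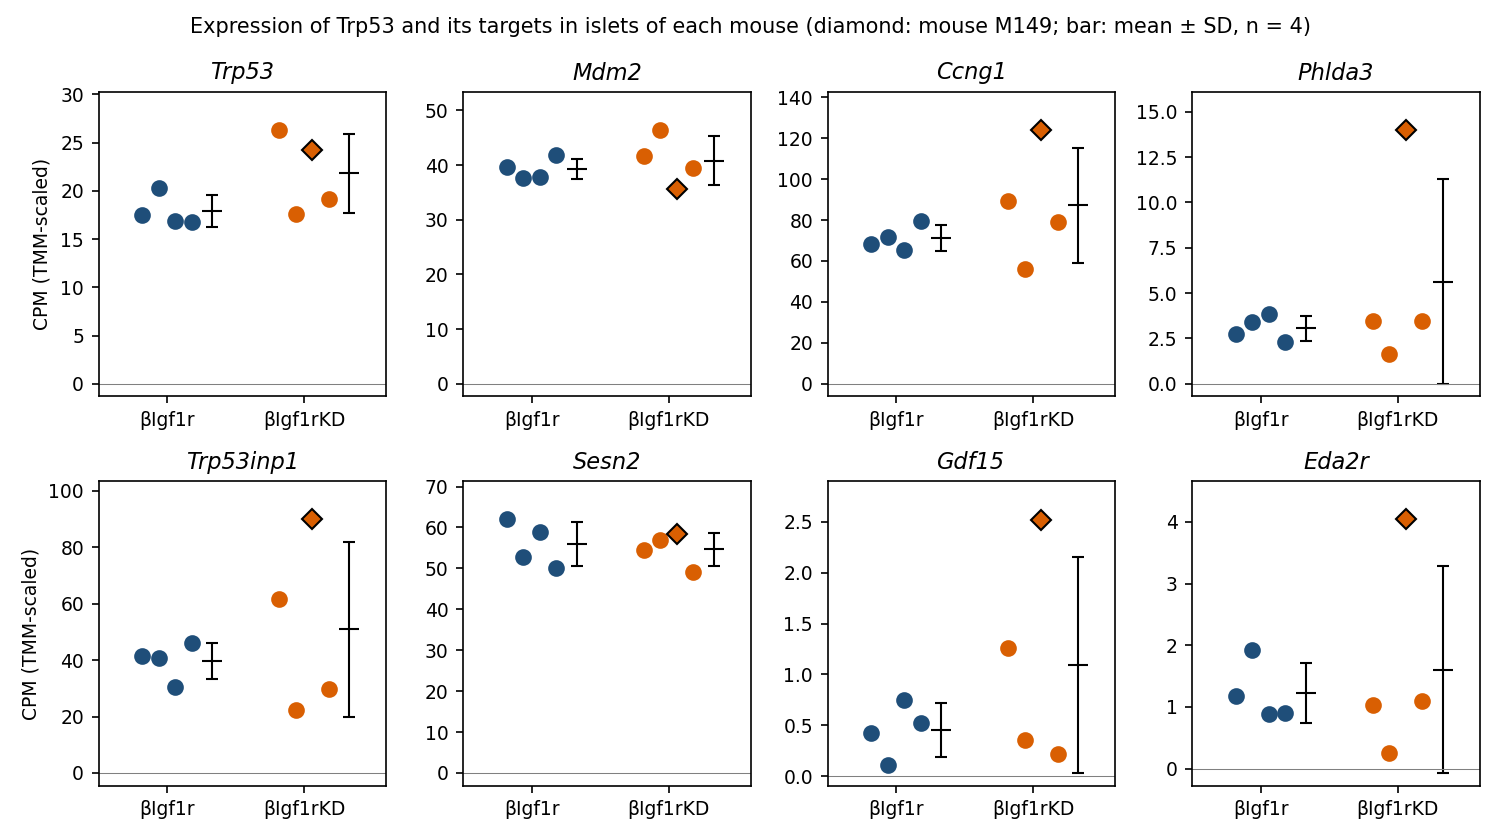
CPM of each of the 8 genes (vertical axes, each from 0) in the 4 βIgf1r and 4 βIgf1rKD mice, with M149 as a diamond and bars for the mean ± SD (n = 4). M149 lies above every other mouse for Ccng1, Phlda3, Trp53inp1, Gdf15 and Eda2r and below every other mouse for Mdm2 at 35.7 CPM.

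p53 binds DNA as a tetramer at a pair of adjacent 10-base half-sites. The promoter windows of RefSeq (GRCm38.p6), 250 bases before to 50 after a gene's start, were searched for the consensus p53 half-site, which reads the same on both strands. Of the genes examined 7 had an entry, with 8 windows, and a half-site without mismatch lay in 3 of these 8 windows, against 9 of 39 windows of 26 other p53 targets described later and 8.36% of all 32851 windows. A full site, meaning 2 half-sites side by side with at most 1 mismatch, lay in the window of Ccng1, where it includes the half-site, and in 0.0883% of all windows. The 3 stretches below are shown because they carry the letters that p53 reads, in the gene for p53 itself, in its feedback target and in Ccng1. Among the other targets 2 of 39 windows held a full site, those of Rps27l and Gtse1. The stretch of Rps27l is shown as an example, and the site of Gtse1, which lies at -1 to 18 and reaches into its first exon, is printed alone. Capitals mark the site, and each is written 5′ to 3′ on the strand of the gene.
Ccng1: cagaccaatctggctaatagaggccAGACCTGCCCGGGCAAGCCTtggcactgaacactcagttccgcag
Mdm2: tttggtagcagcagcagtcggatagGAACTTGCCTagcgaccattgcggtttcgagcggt
Trp53: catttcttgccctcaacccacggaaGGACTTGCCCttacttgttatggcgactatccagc
Rps27l: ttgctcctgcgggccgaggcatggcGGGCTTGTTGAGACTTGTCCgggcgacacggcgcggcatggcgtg
Gtse1: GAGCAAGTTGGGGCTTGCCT
They span chr11:40755437-40755506 (minus strand) for Ccng1, chr10:117710910-117710969 (minus) for Mdm2, chr11:69580259-69580318 (plus) for Trp53, chr9:66946271-66946340 (plus) for Rps27l and chr15:85859945-85859964 (plus) for Gtse1. Positions are counted from the start in RefSeq, which for Ccng1 differs from the gene coordinates given below. The Ccng1 site lies at -195 to -176, that of Mdm2 at -186 to -177, that of Trp53 at -75 to -66 and that of Rps27l at -117 to -98. A match of letters does not show binding, and the windows leave out introns, so that nothing follows for Phlda3, Sesn2, Gdf15 and Eda2r, where these letters were not found.

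The regulator itself came first. Trp53 (ENSMUSG00000059552, chromosome 11, 69580359 to 69591873, plus strand, GRCm38) was at 17.5, 20.3, 16.9 and 16.8 CPM in the βIgf1r mice M148, M151, M152 and M153. In the βIgf1rKD mice M145, M146, M149 and M150 it was at 26.3, 17.6, 24.2 and 19.2 CPM. M145 and M149 were above all other mice, while M146 and M150 lay within the range of the βIgf1r group. The means were 17.9 ± 1.67 and 21.8 ± 4.09 CPM (SD, n = 4), which gave a log2 fold change of 0.29 (standard error 0.14, 95% interval -0.02 to 0.59). This was the smallest p of the 8 genes, but it did not pass the test (edgeR, adjusted p = 0.987). Without M149 the log2 fold change was 0.23. The unadjusted p went under 0.05 without M146 (log2 fold change 0.38), M150 (0.34) or M151 (0.35), while the adjusted p of edgeR, DESeq2 or limma-voom stayed at 0.693 or above under every alternative tried. Of the stretches of 31 bases in Trp53 transcripts, 10.2% also occur in other genes, most of them in the pseudogene Trp53-ps, which had 0 to 1 counts per mouse.

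Mdm2, which marks p53 for degradation (ENSMUSG00000020184, chromosome 10, 117688875 to 117710758, minus strand), varied little. The βIgf1r mice, in the same order as above, had 39.7, 37.7, 37.9 and 41.8 CPM. The βIgf1rKD mice had 41.7, 46.4, 35.7 and 39.4 CPM. M146 was the highest and M149 the lowest of the 8 mice, so that the βIgf1r mice lay between members of the other group. Group means were 39.3 ± 1.88 and 40.8 ± 4.48 CPM (SD, n = 4), and the log2 fold change of 0.06 (standard error 0.09, 95% interval -0.14 to 0.25) was smaller than the spread between mice (edgeR, adjusted p = 0.988). Leaving out M149 gave 0.11, and leaving out M146 turned the sign, to -0.01.

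The ratio of Mdm2 to Trp53 does not depend on how the libraries are scaled. On the log2 scale it was 1.19, 0.89, 1.17 and 1.31 in βIgf1r mice and 0.67, 1.4, 0.56 and 1.03 in βIgf1rKD mice. M149 and M145 had the lowest ratios and M146 the highest. The means were 1.14 ± 0.18 and 0.92 ± 0.38 (SD, n = 4), a difference of -0.22 that did not pass an exact two-sided permutation test (p = 0.314, where the smallest possible p is 0.0286). It was -0.11 without M149, -0.14 without M145 and -0.39 without M146.

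Among the targets tied to the cell cycle and cell death, Ccng1 was the most abundant. It encodes cyclin G1, which recruits protein phosphatase 2A to Mdm2 (ENSMUSG00000020326, chromosome 11, 40748552 to 40755311, minus strand). In βIgf1r mice it was at 68.4, 71.9, 65.2 and 79.5 CPM. In βIgf1rKD mice it was at 89.3, 56.3, 124 and 79.0 CPM. M149 had 1.39 times the level of the next mouse, M145, and M146 the lowest level of all. The log2 fold change was 0.29 (standard error 0.20, 95% interval -0.16 to 0.74, edgeR adjusted p = 0.987), and 0.07 without M149. Without M146 the log2 fold change was 0.45 and the unadjusted p went under 0.05.

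Trp53inp1 encodes a stress protein that promotes p53-dependent cell death and autophagy (ENSMUSG00000028211, chromosome 4, 11156431 to 11174379, plus strand). It was at 41.3, 40.6, 30.6 and 46.2 CPM in βIgf1r mice. The βIgf1rKD mice had 61.6, 22.4, 89.9 and 29.8 CPM. M149 and M145 were thus the 2 highest and M146 and M150 the 2 lowest of the 8 mice, so that the βIgf1rKD group lay on both sides of the other. The means of 39.7 ± 6.55 and 50.9 ± 31.1 CPM (SD, n = 4) gave a log2 fold change of 0.36 (standard error 0.38, edgeR adjusted p = 0.987), which turned to -0.07 without M149.

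Phlda3 encodes a small protein that competes with AKT for membrane lipids and so lowers AKT signalling, a route downstream of the IGF-1 receptor (ENSMUSG00000041801, chromosome 1, 135766119 to 135769136, plus strand). The βIgf1r mice had 2.72, 3.38, 3.84 and 2.27 CPM. Levels in βIgf1rKD mice were 3.46, 1.64, 14.0 and 3.43 CPM. M149 had 321 counts, with a 95% Poisson interval of 287 to 358, and the other 7 mice 46 to 139. Its level was 3.63 times that of the next mouse, M152, while M145 and M150 lay within the βIgf1r range and M146 below it. The means of 3.05 ± 0.696 and 5.63 ± 5.63 CPM (SD, n = 4) gave a log2 fold change of 0.87 (standard error 0.57, 95% interval -0.40 to 2.14, edgeR adjusted p = 0.987). Without M149 the log2 fold change was -0.10, with an interval of -0.80 to 0.59. Without M146, the mouse with the lowest level, it was 1.17 and the unadjusted p went under 0.05.

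Eda2r, a receptor of the tumour necrosis factor family that binds ectodysplasin A2 (ENSMUSG00000034457, chromosome X, 97333840 to 97377216, minus strand), was the gene most lowly expressed per length. In βIgf1r mice it was at 1.17, 1.93, 0.89 and 0.90 CPM, from 19 to 53 counts. The βIgf1rKD mice had 1.03, 0.25, 4.05 and 1.09 CPM, from 7 counts in M146 to 93 in M149. M149 had 2.10 times the level of the next mouse and M146 the lowest. The counting intervals of these mice, 75.1 to 114 and 2.81 to 14.4 counts, do not overlap. The log2 fold change was 0.37 (standard error 0.67, 95% interval -1.12 to 1.87, edgeR adjusted p = 0.988), and -0.63 without M149.

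The remaining targets are stress genes that respond to other pathways as well. Sesn2, a leucine sensor that restrains mTORC1 and is also a target of the transcription factor ATF4 (ENSMUSG00000028893, chromosome 4, 132492032 to 132510501, minus strand), varied as little as Mdm2. βIgf1r mice had 62.0, 52.9, 58.8 and 50.1 CPM. βIgf1rKD mice had 54.4, 56.9, 58.3 and 49.2 CPM. M149 lay inside the βIgf1r range here. The log2 fold change of -0.03 had a standard error of 0.09 and a 95% interval of -0.23 to 0.17, or a fold of 0.85 to 1.12 (edgeR, adjusted p = 0.992). It was -0.07 without M149, and slightly above 0 without M148 (0.02) or M150 (0.01).

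Gdf15 encodes a secreted stress hormone that acts through the receptor Gfral in the hindbrain (ENSMUSG00000038508, chromosome 8, 70629393 to 70632456, minus strand). It had 16, 3, 21 and 11 counts in βIgf1r mice, or 0.426, 0.109, 0.748 and 0.521 CPM. In βIgf1rKD mice it had 27, 10, 58 and 9 counts, or 1.26, 0.357, 2.52 and 0.222 CPM. M149 and M145 were highest, and the other pair of βIgf1rKD mice lay within the βIgf1r range. The log2 fold change of 1.24 was the highest of the 8 genes and the least precise (standard error 0.77, 95% interval -0.50 to 2.97, edgeR adjusted p = 0.987). Without M149 it was 0.38. Without M150 it was 1.6 and the unadjusted p went under 0.05. At these counts a fold anywhere from 0.708 to 7.84 is within the interval.

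**Figure D2:**
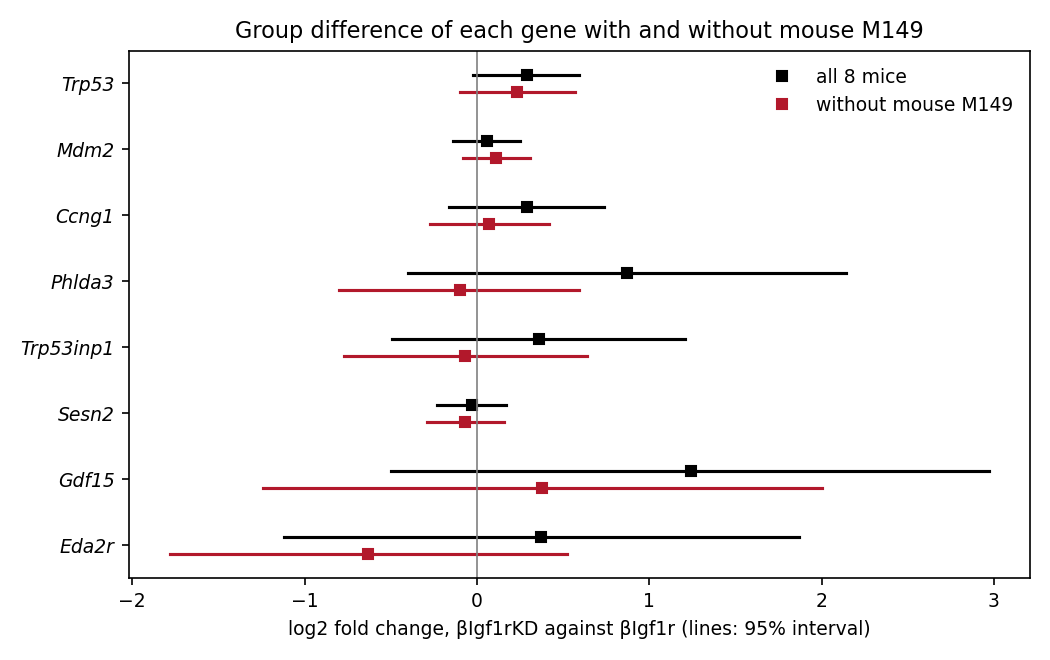
Log2 fold change of βIgf1rKD against βIgf1r (horizontal axis) for each of the 8 genes, with 95% intervals as lines, from all 8 mice (black) and from the 7 without M149 (red). Every interval crosses 0, and without M149 Phlda3 moves from 0.87 to -0.10 and Eda2r from 0.37 to -0.63.

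The spread between mice was itself unequal. On the log2 scale the SD of Phlda3 was 0.328 in βIgf1r and 1.27 in βIgf1rKD mice (n = 4), that of Trp53inp1 0.253 and 0.922, and that of Ccng1 0.122 and 0.471. Trp53 had 0.129 and 0.271, Gdf15 0.944 and 1.45, Eda2r 0.495 and 1.5, Sesn2 0.14 and 0.109, and Mdm2 0.0683 and 0.158. These SDs include M149. Without it Phlda3 ran from 1.64 to 3.46 CPM in βIgf1rKD mice, against 2.27 to 3.84 CPM in βIgf1r mice. Trp53inp1 ran from 22.4 to 61.6 against 30.6 to 46.2 CPM, and Ccng1 from 56.3 to 89.3 against 65.2 to 79.5 CPM. The difference of these spreads was not tested. It was not set against the spread of all genes either, so it is not shown to be particular to the p53 genes. Biological variation within groups, as fitted by edgeR, was 10.8% for Sesn2 and 10.9% for Mdm2, against 54.8% for Phlda3, 64.6% for Eda2r and 71.5% for Gdf15. A group difference of a given size was therefore far easier to detect in Mdm2 or Sesn2 than in Phlda3, Eda2r or Gdf15.

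Levels per length place the genes on a common scale. As CPM per kilobase of exon over all 8 mice, Ccng1 was at 22.6 ± 5.91 (SD, n = 8), Sesn2 at 15.9 ± 1.29, Mdm2 at 7.88 ± 0.646, Trp53inp1 at 7.0 ± 3.34, Trp53 at 4.91 ± 0.886, Phlda3 at 2.78 ± 2.54, Gdf15 at 0.417 ± 0.429 and Eda2r at 0.24 ± 0.197. Sesn2 was above Mdm2, and Phlda3 above Gdf15, in 8 of 8 mice. Neighbours whose order was not the same in every mouse were Ccng1 and Sesn2 (7 of 8), Trp53 and Phlda3 (7 of 8), and Mdm2 and Trp53inp1, Trp53inp1 and Trp53, and Gdf15 and Eda2r (6 of 8 each).

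Relations between the genes differed from pair to pair. With 8 mice, a pair that does not pass adjustment is not shown to be unrelated. Of their 28 pairs, 1 had an adjusted p under 0.05 by Pearson's r of log2 CPM over the 8 mice and 0 by Spearman's rho (10 of 28 had an unadjusted p under 0.05 by r). This was Ccng1 with Trp53inp1, at r = 0.91 (exact permutation test, p = 0.00151, adjusted p = 0.0424) and rho = 0.83 (exact permutation test, p = 0.0154, adjusted p = 0.403). Without M146 and M149, the mice farthest from the median, r was 0.66. Phlda3 and Eda2r had r = 0.87 (exact permutation p = 0.0169, adjusted p = 0.0951) and rho = 0.43 (exact permutation p = 0.299, adjusted p = 0.559), and r fell to 0.17 without the same mice, so that this relation rests on them. Trp53 and Mdm2 had r = -0.28 (exact permutation p = 0.499, adjusted p = 0.665) and rho = -0.36 (exact permutation p = 0.389, adjusted p = 0.641), and r = -0.36 without M145 and M149. Mdm2 ran opposite to Eda2r, at r = -0.91 (exact permutation p = 0.00508, adjusted p = 0.0712) and rho = -0.74 (exact permutation p = 0.0458, adjusted p = 0.403), with r = -0.51 without M146 and M149. Other pairs with an unadjusted p under 0.05 also changed without these mice. Mdm2 with Phlda3 went from -0.82 to -0.59. Ccng1 went to -0.13 with Phlda3 and -0.15 with Eda2r, and Trp53inp1 to -0.33 with Phlda3 and 0.03 with Eda2r. Without M145 and M149, Trp53 went from 0.74 to 0.26 with Ccng1 and from 0.73 to 0.02 with Trp53inp1.

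As a description of each gene's pattern over the 8 mice, the gene with the highest Pearson's r of log2 CPM was Iqsec1 for Trp53 (0.97), Lamtor3 for Mdm2 (0.978), Rps26 for Ccng1 (0.992) and Sdc1 for Phlda3 (0.984). It was Inpp1 for Trp53inp1 (0.961), Ajm1 for Sesn2 (0.96), Cyp3a13 for Gdf15 (0.976) and Rab32 for Eda2r (0.989). Each was picked as the best of all genes tested, and all share the same 8 libraries. At an r of 0.95 or more there were 31 genes for Ccng1 and 29 for Phlda3, but 1 for Trp53, 2 for Trp53inp1 and 3 for Sesn2.

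Other p53 targets were listed from general knowledge, leaving out CDK inhibitors and the BCL2 family, and all 33 were tested. Of these 2 had an unadjusted p under 0.05, both higher in βIgf1rKD islets (2.23% of all genes were higher at that p), 0 were lower (1.89% of all genes), and 0 passed adjustment. Log2 fold changes were above 0 for 25 of the 33 (52.3% of all genes), with a median of 0.16 against 0.01 over all genes. Without M149 they were above 0 for 17 of the 33 (51.6% of all genes), with a median of 0.01 and 0 genes at an unadjusted p under 0.05. Leaving out M146 instead gave a median of 0.19 and 5 genes higher at that p (645 of 15680 genes over all). Aen, an exonuclease gene of the apoptotic response, was at 22.6 ± 2.71 CPM in βIgf1r and 27.4 ± 3.65 CPM in βIgf1rKD mice (SD, n = 4), which gave a log2 fold change of 0.28 (standard error 0.12, edgeR adjusted p = 0.987), and 0.19, with an unadjusted p above 0.05, without M149. Perp, which encodes a membrane protein of desmosomes and apoptosis, was at 7.82 ± 1.39 and 16.8 ± 13.9 CPM (log2 fold change 1.10, standard error 0.47, edgeR adjusted p = 0.987). M149 had 37.0 CPM of Perp and the other 7 mice 6.39 to 14.6, and without it the log2 fold change was 0.37 and the unadjusted p above 0.05. Psrc1, a spindle gene, came next (log2 fold change 1.91, standard error 0.99, edgeR adjusted p = 0.987). It was at 7.14 CPM in M149 and 0.286 to 0.758 CPM in the other 7 mice, and at a log2 fold change of -0.39 without M149.

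M149 was the highest of the 8 mice for 5 of the 8 genes (62.5%) and for 18 of the 33 other targets (54.5%), against 16.2% of all genes tested. It was the highest by at least 2-fold for Phlda3 and Eda2r and for Gtse1, Perp, Psrc1 and Sulf2 among the other targets, against 1.09% of all genes. Since M149 was picked for its levels of such targets, these counts are a description. Further targets highest in M149 included Tnfrsf10b, a death receptor, at 1.81 times the next mouse, Dram1, an autophagy gene, at 1.63 times, Zmat3, an RNA-binding regulator, at 1.36 times, and Rps27l, whose full p53 site is printed above, at 1.32 times. Sesn1, Rrm2b and Tigar, which encode a sestrin, a ribonucleotide reductase subunit and a glycolytic regulator, were lower in M149 than the median of the 8 mice by log2 differences of -0.24, -0.16 and -0.21. The targets of p53 thus did not all stand high in this mouse, and Mdm2 and Sesn2 were among those that did not. The mouse with the lowest levels was in the same group. M146 was the lowest for 4 of the 8 genes and 11 of the 33 other targets, against 15.9% of all genes tested. It was the highest for 1 of the 8 genes and 5 of the 33 other targets, against 21.2% of all genes. Both of these shares of all genes were the largest of any mouse, so that M146 was often at an extreme beyond the p53 targets.

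**Figure D3:**
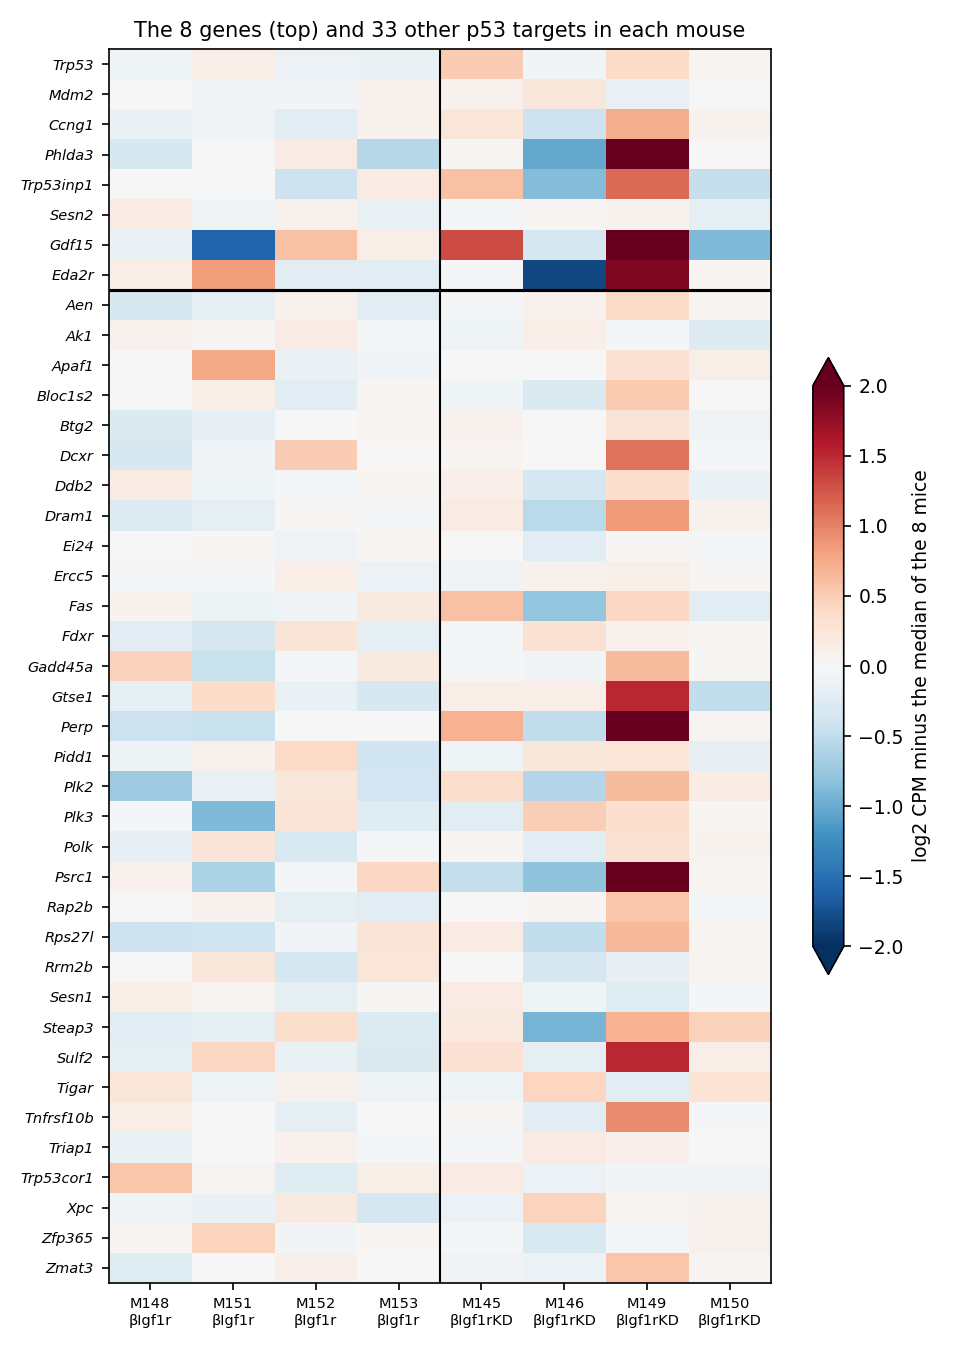
Log2 CPM minus the median of the 8 mice (colour, limited to 2 in each direction) for the 8 genes above the line and 33 other p53 targets below it, with a column per mouse. The M149 column holds the highest value for 5 of the 8 genes and 18 of the 33 others, while Mdm2 is at -0.15 and Sesn2 at 0.07 there.

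Genes that regulate p53 did not share this pattern. There were 24 such genes, among them the damage kinases Atm, Atr, Chek1 and Chek2 and the phosphatase Ppm1d. Of these, 0 had an unadjusted p under 0.05 in either direction (4.12% of all genes). Log2 fold changes were above 0 for 11 of the 24 (52.3% of all genes), and the median was -0.01 against 0.01 (-0.01 without M149). M149 was the highest mouse for 4 of the 24 (16.7%), close to the 16.2% of all genes. The smallest p belonged to Ppp1r13l, the p53 inhibitor iASPP, at 4.94 ± 0.974 and 6.67 ± 1.57 CPM (SD, n = 4, log2 fold change 0.43, standard error 0.20, edgeR adjusted p = 0.987), with a log2 fold change of 0.36 without M149. Mdm4, the partner of Mdm2, was at 37.5 ± 5.37 and 41.0 ± 3.41 CPM, with a log2 fold change of 0.13 (0.11 without M149, -0.04 with the endothelial score). Npm1, a nucleolar protein that binds Mdm2, had a log2 fold change of 0.15 (-0.01 without M149), and was at 190 CPM in M149 against 112 to 147 CPM in the other mice.

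Sesn2 and Gdf15 are also targets of ATF4, the effector of the integrated stress response, so its program was examined beside them. Of 21 genes listed 20 were tested, since the symbol of Ddit3 belongs to more than 1 identifier. At an unadjusted p under 0.05, 1 was higher and 0 lower (2.23% and 1.89% of all genes). Log2 fold changes were above 0 for 15 of the 20 (52.3% of all genes), with a median of 0.25 against 0.01. Without M149 they were above 0 for 12 of the 20 (51.6% of all genes), with a median of 0.07. At that p 2 genes were then higher, against 302 of all 15661 genes tested without M149. Fgf21, a secreted stress hormone, was at 2.30 ± 1.58 and 6.23 ± 4.13 CPM (SD, n = 4, log2 fold change 1.44, standard error 0.57, edgeR adjusted p = 0.987), and had a log2 fold change of 1.45 without M149. This was 0.91 without M145, and 0.69 and 0.20 with the acinar and the endothelial marker score as covariates. For Atf4 itself the log2 fold change was 0.26 (standard error 0.12, edgeR adjusted p = 0.987), and 0.31 without M149, but 0.06 with the endothelial score. Endothelial marker sums separated the groups, as given below, so values with this score are not corrected for cell composition. Atf3 had 1.66 (standard error 0.80, edgeR adjusted p = 0.987) and was at 8.58 CPM in M149 against 0.286 to 1.92 CPM in the other 7 mice. Its log2 fold change was 0.28 without M149, 0.62 with the acinar score as a covariate and 0.68 by limma-voom. M149 was the highest mouse for 10 of the 20 (50%), against 16.2% of all genes.

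Relatives and partners of the genes were listed as well. Of 18, 13 were tested, and 0 had an unadjusted p under 0.05 in either direction (4.12% of all genes). The median was -0.03 against 0.01 (0.00 without M149), and 4 of 13 log2 fold changes were above 0 (52.3% of all genes). M149 was the highest mouse for 0 of the 13, against 16.2% of all genes. The p53 relatives Trp63 and Trp73 had at most 1 and 8 counts in a mouse, the Phlda3 relative Phlda2 at most 4, the ectodysplasin receptor Edar at most 8, and Gfral, the receptor of Gdf15, 0 in every mouse, which allows up to 3 counts. Ret, the co-receptor of Gfral, was at 138 ± 5.76 and 128 ± 12.0 CPM (SD, n = 4), with a log2 fold change of -0.10 (-0.06 without M149). Sesn3, a relative of Sesn2, was at 150 ± 15.5 and 143 ± 9.83 CPM, with a log2 fold change of -0.07 (-0.03 without M149).

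**Figure D4:**
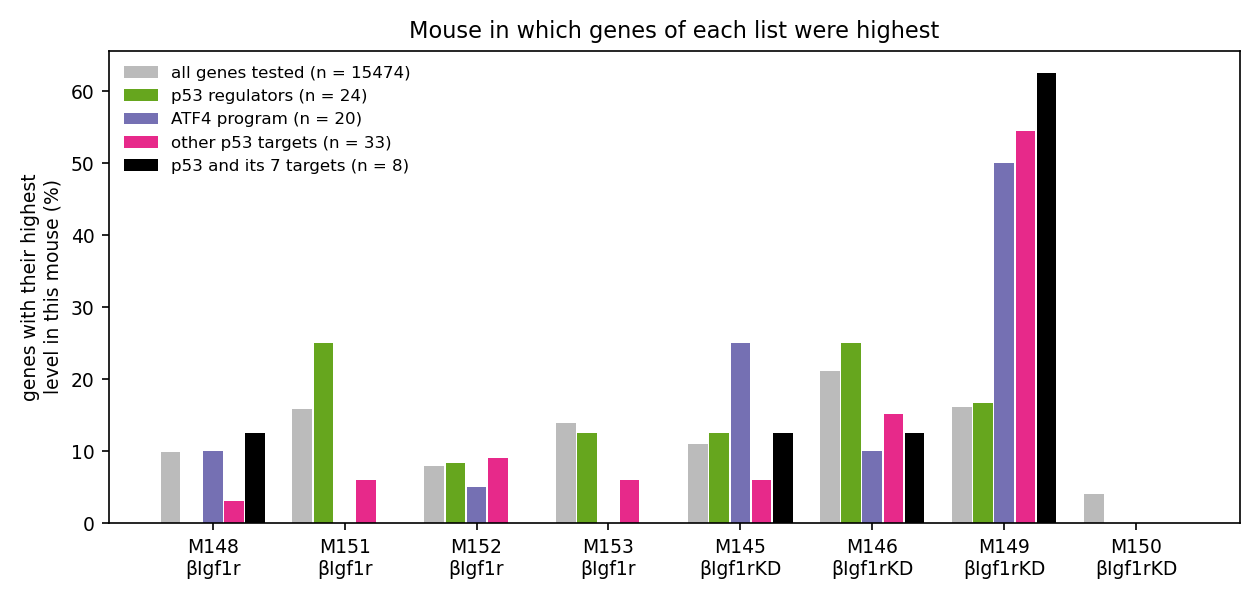
Percentage of the genes of each list (vertical axis) that had their highest level in each mouse (horizontal axis), for all genes tested, p53 regulators, the ATF4 program, other p53 targets and p53 with its 7 targets. M149 takes 62.5% of the 8 genes and 54.5% of the other targets as well as 50% of the ATF4 program, and 16.7% of the p53 regulators and 16.2% of all genes.

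Islet preparations hold other cells, and in bulk RNA a change in their number and a change in RNA per cell cannot be told apart. In M149 the summed CPM of the markers of several other cell types was also at its highest. Acinar enzyme genes, 14 markers with none at 0 in any mouse, took 22.2% of its counts, against 2.69% to 19.2% in βIgf1r mice and 5.54% to 19.8% in the other βIgf1rKD mice, and 9 of the 14 were highest in M149. The summed immune markers were at 289 CPM in M149 (119 to 191 CPM in βIgf1r mice, with 8 of 10 markers highest in M149), the mesenchymal ones at 367 CPM (200 to 227 CPM, 7 of 9) and the duct ones at 281 CPM (180 to 227 CPM, 5 of 6). As a share of counts, without TMM scaling, immune and mesenchymal markers were again highest in M149, but duct markers, at 0.0235%, lay within the 0.0205% to 0.025% of βIgf1r mice. Lowest in M149 were the sums of alpha, delta and PP-cell markers, whereas β-cell markers were at 141000 CPM, within the βIgf1rKD range of 128000 to 189000 CPM and below the 147000 to 204000 CPM of βIgf1r mice. The β-cell sum includes Ins1, the gene named in the Cre genotype. Ins1 was at 41100 ± 7910 CPM in βIgf1r and 21700 ± 4570 CPM in βIgf1rKD mice (SD, n = 4). A lower β-cell sum in βIgf1rKD mice is therefore not a measure of β-cell content, and the cause of the lower Ins1 was not tested. Endothelial markers were at 442 to 491 CPM in βIgf1rKD and 492 to 618 CPM in βIgf1r mice (p = 0.0286 by exact permutation, the smallest that 4 against 4 mice allow), though as a share of counts the groups overlapped, at 0.0355% to 0.0528% and 0.0504% to 0.0762%. The part of immune, mesenchymal and duct cells in the levels of the 8 genes was not tested.

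The part of acinar RNA was not tested beyond the values that follow, which differ between the genes. M145 and M152 had the next highest acinar shares, 19.8% and 19.2%. They were at 3.46 and 3.84 CPM of Phlda3, against 14.0 CPM in M149, and held ranks 3 and 2 of the 8 mice. For Gdf15 they held ranks 2 and 3, at 1.26 and 0.748 CPM against 2.52 CPM in M149. M145 held rank 1 for Trp53 and rank 2 for Ccng1 and Trp53inp1, whereas M152 held ranks 7, 7 and 6 for these genes. Over the 8 mice the acinar sum and Phlda3 had r = 0.55 (exact permutation test, p = 0.144, adjusted p = 0.384 over 8 relations) and rho = 0.79 (exact permutation p = 0.0279, adjusted p = 0.147), with r = 0.75 without M148 and M151, the mice farthest from the median. For Gdf15, r was 0.67 (exact permutation p = 0.0755, adjusted p = 0.384) and rho 0.76 (exact permutation p = 0.0368, adjusted p = 0.147), with r = 0.65 without the same mice. None of the 8 relations passed adjustment. With the acinar score as a covariate, log2 fold changes were 0.20 for Phlda3, 0.37 for Gdf15, 0.08 for Ccng1, 0.22 for Trp53, 0.10 for Mdm2, -0.01 for Sesn2, -0.03 for Trp53inp1 and -0.16 for Eda2r. With the endothelial score they were 1.31 for Phlda3, 2.57 for Gdf15, 0.48 for Ccng1, 0.17 for Trp53, 0.03 for Mdm2, 0.15 for Sesn2, 0.75 for Trp53inp1 and 0.59 for Eda2r. The median of the 8 was 0.09 with the acinar and 0.53 with the endothelial score, against 0.32 with neither. With either score 0 of the 8 had an unadjusted p under 0.05 (edgeR). Endothelial marker sums in CPM did not overlap between the groups, so that score and group can hardly be separated in this fit. The values with the endothelial score are therefore not differences corrected for cell composition.

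**Figure D5:**
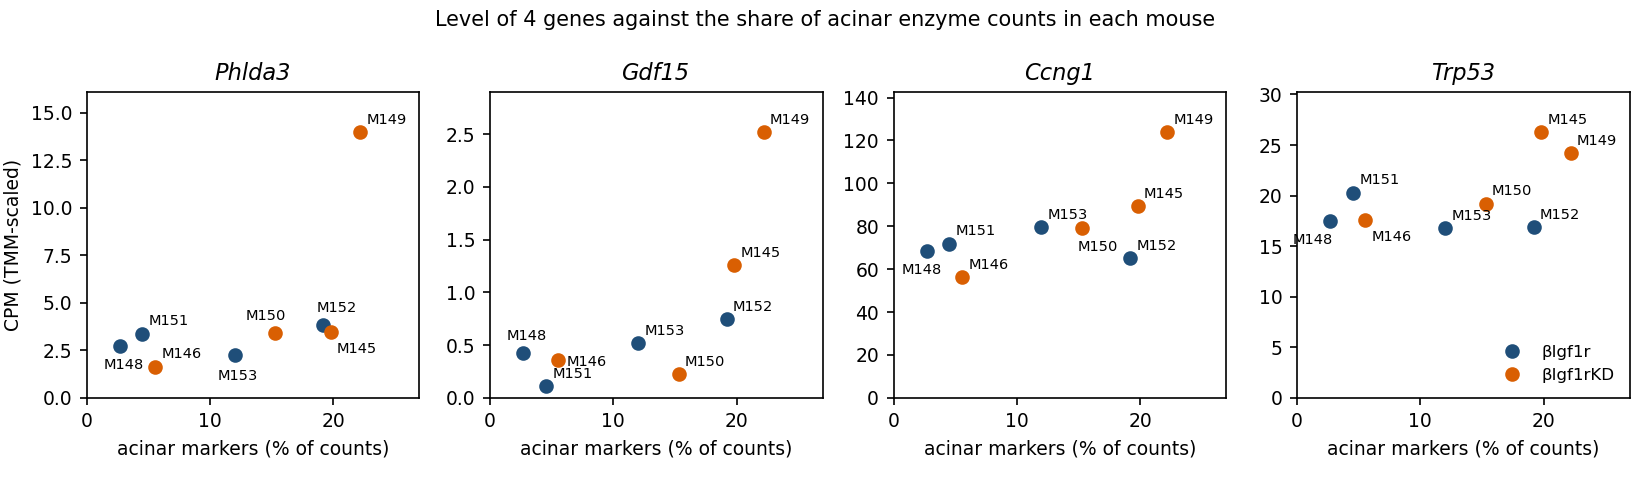
CPM of Phlda3, Gdf15, Ccng1 and Trp53 (vertical axes, from 0) against the percentage of counts taken by 14 acinar enzyme genes (horizontal axis) in each mouse, coloured by group. M149 (22.2%) is highest for Phlda3, Gdf15 and Ccng1, and M145 (19.8%) is highest for Trp53 and next to M149 for Gdf15 and Ccng1, while M152 (19.2%) holds rank 2 for Phlda3, 3 for Gdf15 and 7 for Ccng1 and Trp53.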

How the data were processed

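The authors deposited 1 table of estimated counts per gene and mouse, unscaled, of which 85.3% to 87.6% of the values per mouse are whole. Libraries were made with a stranded mRNA kit. Per the labels, the submitters' processing notes name fastp, kallisto and GRCm38, with no versions; the annotation release is not given in the sources used here. Symbols, coordinates and exons are from GENCODE M21 on GRCm38, joined by Ensembl identifier (51906 of 53012 matched; 200 identifiers that share a symbol were kept under their identifier).

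Groups and mouse numbers come from the sample labels. Counts were rounded, filtered with filterByExpr of edgeR 4.0.16 (minimum 10 counts in 4 mice after scaling, minimum total 15), scaled by TMM and tested with glmQLFit and glmQLFTest (quasi-likelihood) in R 4.3.3, with Benjamini-Hochberg adjustment over the 15474 genes left. Log2 CPM used a prior count of 2. Permutation tests (scipy 1.17.1) were exact and two-sided. Each library came from a different mouse, and intervals of single counts cover counting error only. The tests were also run on simulated data.

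The 8 genes and all gene lists were chosen with earlier results of these data known. The genes named are the 8, from each list those with an unadjusted p under 0.05 and the 3 with the smallest p, and for each of the 8 the gene most like it. Other names (Gtse1, Sulf2, Tnfrsf10b, Dram1, Zmat3, Rps27l, Sesn1, Rrm2b, Tigar and the genes below the filter) were added after their values were seen. Alternatives were RLE factors, removal of acinar genes before scaling, no filter, at least 10 counts in every mouse, DESeq2 1.42.0, limma-voom (limma 3.58.1), covariates (Xist, acinar or endothelial score) and leaving out each mouse. Mice were assigned no sex. Figures were made in Python 3.11.15 with matplotlib 3.10.9.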

Additional observations from a re-analysis of the deposited data

How the results depend on the processing

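No paired analysis was possible because the groups share no mouse numbers. The 8 genes had 0 adjusted p-values under 0.05 under every alternative that could be fitted. Over all genes DESeq2 gave 6 and limma-voom 1, where edgeR gave 0 (637 at an unadjusted p under 0.05). No scaling moved the median of all genes by more than 0.1 on the log2 scale. The cause of the changes below was not tested.

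Signs of log2 fold changes turned as follows. Mdm2 went to -0.01 without M146, Phlda3 to -0.10 without M149, Trp53inp1 to -0.03 with the acinar covariate and -0.07 without M149, and Eda2r to -0.16 with the acinar covariate, -0.22 with limma-voom and -0.63 without M149. Sesn2 went to 0.003 with Xist, 0.15 with the endothelial score, 0.02 without M148 and 0.01 without M150. Mdm4 went to -0.04 with the endothelial score, and Npm1 to -0.01 and Psrc1 to -0.39 without M149. With 1 mouse left out, the range was -0.01 to 0.11 for Mdm2, -0.10 to 1.17 for Phlda3, -0.07 to 0.60 for Trp53inp1, -0.09 to 0.02 for Sesn2, -0.63 to 0.73 for Eda2r, -0.01 to 0.25 for Npm1 and -0.39 to 2.27 for Psrc1.

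At an unadjusted p under 0.05, the 8 genes had 1 call with Xist (Gdf15), 1 with no filter (Trp53) and 0 to 3 with 1 mouse left out (3 without M146: Ccng1, Phlda3 and Trp53). In the same fits, calls in either direction over all genes were 1143 of 15474 with Xist, 1098 of 27738 with no filter and 960 of 15680 without M146. Of the other p53 targets 6 were higher with Xist, 0 with the acinar score, 1 with the endothelial score, 1 with limma-voom and 0 to 5 with 1 mouse left out (5 without M146, 0 without M148, M149, M151 or M153), and their median was 0.01 (without M149) to 0.20 in the latter. Over all genes 729 were higher with Xist, 210 with the acinar score, 98 with the endothelial score, 643 with no filter and 188 (without M153) to 646 (without M152) with 1 mouse left out, and 182 were lower with the acinar score, 455 with no filter and 180 (without M148) to 468 (without M152) with 1 mouse left out. Over all alternatives 0 to 7 genes of the ATF4 program were higher, 0 to 1 of the p53 regulators higher and 0 to 2 lower, and 0 to 1 of the relatives and partners higher. The remaining 255 of 296 values for the 8 genes, the other targets and all genes were not marked as turned or moved. This marking was loose. Log2 fold changes of single genes were marked only when the sign turned, whatever their p. The unmarked values include the median of the 8 genes, which fell from 0.32 to 0.00 without M149 and rose to 0.53 without M146. They also include the genes higher with DESeq2, 481 against 345. Gdf15 and Eda2r have mice under 10 counts, so a minimum of 10 counts in every mouse gave no value for them, and depth limits what can be said of both.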
